A study of Mus musculus with 2 samples.

Results

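Levels of 9 genes of the type I interferon response (Ifit1, Ifit3, Rsad2, Isg15, Irf7, Ifi27l2a, Bst2, Stat2 and Irf1) were read in single liver endothelial cells. The genes were taken by symbol, and each matched 1 of the 31053 genes in both count matrices. The cells were sorted as DAPI-, CD45- and CD31+, a gate for living cells that carry the endothelial protein CD31 and lack the leukocyte protein CD45. Both donors were adult C57BL/6 mice carrying the Gimap5 allele sphinx: 1 had a single copy (Gimap5sph/+, here sph/+) and 1 had it on both chromosomes (Gimap5sph/sph, here sph/sph). Each gave 1 droplet library. Gimap5 encodes a GTPase of lymphocytes and endothelium. With 1 mouse per genotype there is no replicate and no test between genotypes, and the genotype cannot be told apart from the mouse or the library. The sphinx allele is a missense mutation, so transcript level does not check the labels: Gimap5 was at 104.8 CPM in sph/+ and 104.6 in sph/sph. UMIs, unique molecular identifiers, count captured transcripts, and CPM is a gene's UMIs divided by all UMIs of the cells and scaled to the customary common total. In 3′ libraries such as these, CPM does not depend on transcript length.

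Type I interferons are secreted proteins of the alpha and beta families that bind a receptor made of IFNAR1 and IFNAR2. The receptor's kinases JAK1 and TYK2 phosphorylate STAT proteins, STAT2 among them, which join IRF9 and bind interferon-stimulated response elements (ISREs) in target genes. Interferon gamma uses another receptor and acts through gamma-activated sites (GAS). Liver sinusoidal endothelial cells (LSECs) line the hepatic capillaries, are in constant contact with blood from the gut and can respond to both kinds of interferon. Of the genes described, Ifit1, Ifit3 and Rsad2 (viperin) encode intracellular antiviral proteins, and Isg15 encodes a ubiquitin-like modifier. Bst2 encodes tetherin, which holds budding viruses at the cell surface, and Ifi27l2a encodes a small interferon-inducible protein. Stat2, Irf7 and Irf1 encode transcription factors; Irf7 amplifies the interferon response, and Irf1 is also a classical target of interferon gamma.

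Promoter sequences of these genes were read for matches to the 2 kinds of element. RefSeq promoters of build GRCm38.p6 were available for 8 of the 9 genes, and the 250 bases before each start site were searched on both strands for the ISRE core GAAANNGAA and the GAS motif TTCNNNGAA. The ISRE core was present in 6 of the 8 genes and the GAS motif in 2. Of all 32851 promoters, each counted singly, 7.13% and 7.02% hold them. A gene was counted if any of its promoters matched, and Irf1 had 2, so the units differ. Matches are descriptions of letters and not of bound sites. The following 5 promoters show the range, 5′ to 3′ on the gene's strand, with matches in capitals; a core on the opposite strand appears as its reverse complement.
Ifit1 (chr19:34640639-34640888, + strand, 3 ISRE cores on the opposite strand): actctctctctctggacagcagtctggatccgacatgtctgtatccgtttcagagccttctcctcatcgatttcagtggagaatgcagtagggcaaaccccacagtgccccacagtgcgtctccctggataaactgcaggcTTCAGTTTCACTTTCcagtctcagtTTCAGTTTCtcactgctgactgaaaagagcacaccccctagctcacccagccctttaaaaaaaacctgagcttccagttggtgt
Rsad2 (chr12:26456453-26456702, - strand, 1 ISRE core on the opposite strand): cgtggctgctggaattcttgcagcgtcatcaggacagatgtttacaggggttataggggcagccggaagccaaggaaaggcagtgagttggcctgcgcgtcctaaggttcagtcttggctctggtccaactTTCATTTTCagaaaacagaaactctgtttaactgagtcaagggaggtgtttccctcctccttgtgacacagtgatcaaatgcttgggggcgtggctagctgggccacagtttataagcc
Isg15 (chr4:156200819-156201068, - strand, 3 overlapping ISRE cores): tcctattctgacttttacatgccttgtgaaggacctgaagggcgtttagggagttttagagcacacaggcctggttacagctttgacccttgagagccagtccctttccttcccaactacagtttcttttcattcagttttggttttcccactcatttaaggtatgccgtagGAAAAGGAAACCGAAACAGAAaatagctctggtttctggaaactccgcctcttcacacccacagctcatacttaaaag
Bst2 (chr8:71537473-71537722, - strand, 2 overlapping ISRE cores preceded by an overlapping GAS match): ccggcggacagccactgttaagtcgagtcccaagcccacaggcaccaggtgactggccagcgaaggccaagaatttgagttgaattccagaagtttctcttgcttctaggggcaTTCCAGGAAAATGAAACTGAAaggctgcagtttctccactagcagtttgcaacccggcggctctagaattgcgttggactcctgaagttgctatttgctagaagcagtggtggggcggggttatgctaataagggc
Irf1 (chr11:53769764-53770013, + strand, 1 GAS match and no ISRE core): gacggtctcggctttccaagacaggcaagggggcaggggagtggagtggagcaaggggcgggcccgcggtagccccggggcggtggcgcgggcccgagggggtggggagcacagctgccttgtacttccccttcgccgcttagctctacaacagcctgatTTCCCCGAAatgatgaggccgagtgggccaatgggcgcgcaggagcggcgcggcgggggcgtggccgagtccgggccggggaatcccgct
In Ifit1 the matches began 109, 103 and 84 bases before the start site, and in Isg15 78, 72 and 66 bases before it. Ifit3 also held 3 ISRE cores and Stat2 held 1. The Irf7 window held neither motif, and a second Irf1 start site had none. Among 95 listed genes of the pathway with a promoter, 41 held an ISRE core and 18 a GAS match.

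A feature of the deposit had to be settled before any level was read. Barcodes in each matrix end in 1 of 2 suffixes, and the same 16-base sequences occur under both. In sph/+ 6391 sequences occurred under suffix 1 (6409 barcodes) and suffix 2 (6727), and in sph/sph 7729 (of 7739 and 8647). Counts of the 2 versions of a cell differed less than independent counts would: the squared difference over the sum was 0.479 in sph/+ and 0.614 in sph/sph, where independent Poisson counts give about 1. They were therefore treated as 1 set of cells counted over again, not as more cells, and only suffix 2, with more barcodes and UMIs, was used. Over the same cells, Rsad2 was at 138.1 CPM under suffix 2 and 138.8 under suffix 1 in sph/+, and at 269.8 and 267.9 in sph/sph. Between the mice, 17 barcode sequences were shared.

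After filtering, 5661 endothelial-like cells of sph/+ (27428119 UMIs, median 4536 per cell) and 5943 of sph/sph (29511356 UMIs, median 4068) entered the comparison. Another 123 and 192 cells that passed the filters were not endothelial-like, hepatocyte-marked and cholangiocyte-marked cells among them, and were left out. Within the endothelial-like cells, which were chosen by endothelial markers, Pecam1, which encodes CD31, was at 723 and 1051 CPM, and Ptprc, which encodes CD45, had 3 and 12 UMIs. By their markers, 5552 of the sph/+ cells were LSEC-like, while 4265 of the sph/sph cells were continuous vascular-like, 614 lymphatic-like and 549 LSEC-like. No endothelial-like cluster held more than 5 cells of the other library, so cluster and genotype cannot be told apart either. Of the LSEC-like sph/sph cells, 547 were in cluster 9, led by Sprr2b, Tubb3 and Inhba. In it 9 of the 12 LSEC markers were detected, the fewest the name allowed, beside 7 continuous vascular markers. Rspo3 and Wnt9b, listed as markers of endothelium near the central vein, were also among its leading genes. Haemoglobin RNA also differed: 7 erythroid markers summed to 2828 CPM in sph/sph and 0.328 in sph/+, where Hbb-bt was at 0. Haemoglobin genes were among the leading genes of sph/sph clusters 6 and 9, and the part of blood RNA in the results was not tested.

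Over all endothelial-like cells, each of the 9 genes was at a higher level in sph/sph than in sph/+, by factors from 1.18 to 19.0; among LSEC-like cells alone, Ifit1 was lower in sph/sph. The transcription factors Irf7, Irf1 and Stat2, the modifier Isg15 and Ifi27l2a were at least 2-fold higher, whereas Ifit1 was nearly level. These 5 of 9 genes stand beside 11.1% of the 7466 measured genes (20 CPM or more in either library) whose sph/sph level was at least 2-fold higher. None of the 9 was 2-fold lower, against 10.8% of measured genes. Higher genes made up 50.6% of all genes past 2-fold, and 60.9% when no floor on the level was set. The median log2 ratio of the 9 was 1.29, and that of all measured genes -0.08. The plot of levels by library shows the 9 pairs.

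**Figure D1:**
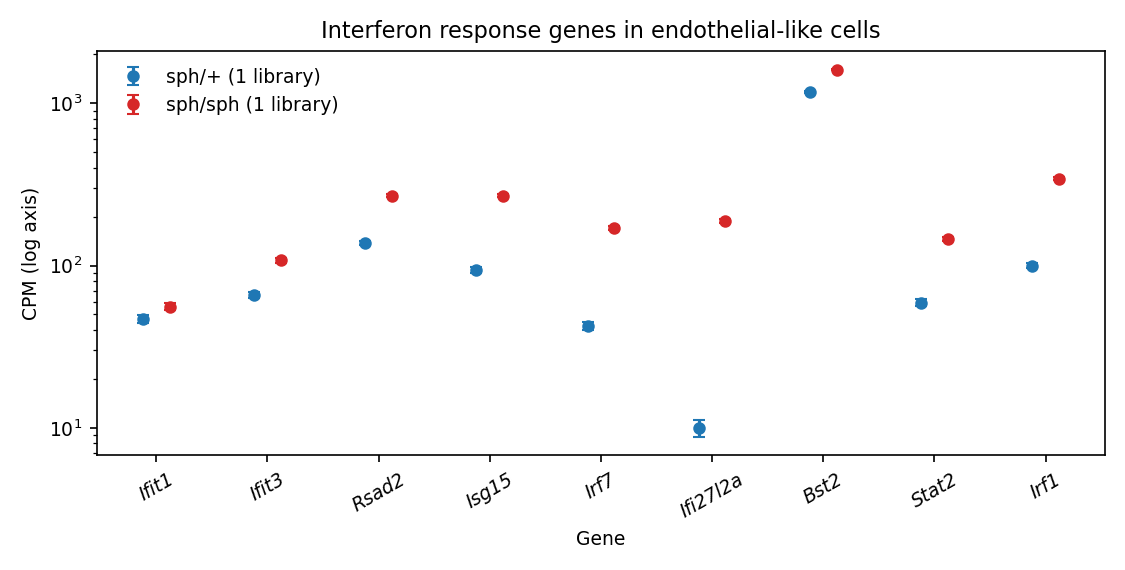
Level of each gene (CPM, log axis) in all endothelial-like cells of the sph/+ (blue) and sph/sph (red) library; points are 1 library each and bars are 95% exact Poisson intervals, which cover counting error only. The red point is above the blue point for each of the 9 genes, with the widest gap for Ifi27l2a (9.92 and 189) and the narrowest for Ifit1 (47.1 and 55.6).

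Among the antiviral effectors, Ifit1 (chromosome 19, 34640871 to 34650009) was at 47.1 CPM (95% interval 44.5 to 49.7) in sph/+ cells and 55.6 (53.0 to 58.4) in sph/sph cells, a ratio of 1.18 (1.10 to 1.27). Ifit3, its neighbour on chromosome 19, was at 65.8 and 108, a ratio of 1.64 (1.54 to 1.73). Ifit3 has a near-identical copy, Ifit3b, that the counting could confuse with it, and Ifit3b was at 30.8 and 30.2. Rsad2 (chromosome 12, 26442746 to 26456452) was at 138 (134 to 142) and 270.0 (264 to 276), just short of 2-fold at 1.96. Bst2 had the narrowest interval, since it was well detected in both libraries: 1172 and 1609, a ratio of 1.37 (1.35 to 1.39). Over all endothelial-like cells none of these 4 genes reached 2-fold, though their intervals did not overlap between the libraries.

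Isg15 (chromosome 4, 156199424 to 156200818) was at 93.8 CPM (90.2 to 97.5) and 269 (263 to 275), a ratio of 2.87. When each cell was thinned to 2000 UMIs (leaving out 205 shallower cells of sph/+ and 445 of sph/sph), 12.7% of sph/+ and 32.7% of sph/sph cells had an Isg15 UMI. Irf7 (chromosome 7, 141262706 to 141266481) was at 42.5 and 170.0, a log2 ratio of 1.98 (as a ratio, 3.75 to 4.27). Stat2 was at 58.9 and 145, a ratio of 2.46 (2.32 to 2.61), and Irf1 at 99.97 and 343, a ratio of 3.43 (3.28 to 3.58). All 3 transcription factors were thus higher in sph/sph than Ifit1 and Ifit3 were, as ratios.

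Ifi27l2a (chromosome 12, 103442167 to 103443680) had the largest ratio, 19.0 (16.8 to 21.6), with 9.92 CPM in sph/+ and 189 in sph/sph. Most of these UMIs came from 1 cell class. The 614 lymphatic-like cells held 92.4% of the Ifi27l2a UMIs and 21.7% of all UMIs of the library's endothelial-like cells, at a level of 804 (783 to 827). Continuous vascular-like sph/sph cells were at 7.32 (6.10 to 8.70) and LSEC-like sph/+ cells at 9.14 (8.02 to 10.4), so between these 2 classes the log2 ratio turned to -0.29. Without lymphatic-like cells it was 0.83 in place of 4.12. The sph/+ library had 4 lymphatic-like cells, with 2 Ifi27l2a UMIs.

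LSEC-like cells are the class that both libraries hold in number, 5552 and 549, although in different clusters. This rests on the clustering: at resolution 0.5 no LSEC-like cluster held more than 1 sph/sph cell, while an unnamed endothelial cluster held 720. The other alternative clusterings each kept an LSEC-like cluster made mostly of sph/sph cells. Distance from the central vein was not matched between the libraries. Within the LSEC-like class Ifit1 was at 47.8 CPM (45.2 to 50.5) in the sph/+ library and 27.2 (21.4 to 34.0) in the other. Its log2 ratio was -0.79, against 0.24 over all endothelial-like cells. Isg15 was at 93.6 and 153, a log2 ratio of 0.70 in place of 1.51, and Ifit3 at 66.2 and 75.8 with intervals that overlapped (63.2 to 69.4 and 66.0 to 86.8). Rsad2, at 139 and 363 (log2 ratio 1.38), Irf7, at 42.0 and 173 (2.02), Irf1 (1.51), Stat2 (1.15) and Ifi27l2a (2.80) were at least 2-fold higher in the sph/sph cells. So 5 of the 9 genes passed 2-fold toward sph/sph here, with Rsad2 in place of Isg15, beside 804 of all 7413 measured genes.

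Lymphatic-like cells also set apart the effectors from each other. Led by Mmrn1 and Ccl21a, genes of lymphatic endothelium, they formed cluster 8, with Dcn and Hamp also among the leading genes and a median of 10115 UMIs per cell. Rsad2 was at 14.2 CPM there (11.5 to 17.5) and Ifit3 at 17.7 (14.6 to 21.2), the lowest levels of these 2 genes in any endothelial-like cluster of at least 50 cells. In the same cells Isg15 was at 260.0 (248 to 273) and Ifit1 at 56.9 (51.2 to 63.1), within the range of the other sph/sph clusters. Irf1 was at 109 and Irf7 at 64.7, the lowest in sph/sph. After thinning, a Rsad2 UMI was found in 2.14% of lymphatic-like cells and 40.2% of continuous vascular-like cells of the same library. The part of free RNA from the droplets in these shares was not tested. Before thinning, the median depth was 10115 UMIs in lymphatic-like and 3694 in continuous vascular-like cells. With lymphatic-like cells left out, the log2 ratio of Rsad2 rose from 0.96 to 1.30 and that of Ifit3 from 0.70 to 0.998. Counts of genes at least 2-fold higher then still came to 5, with Rsad2 in place of Ifi27l2a, beside 830 of all 7431 measured genes.

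**Figure D2:**
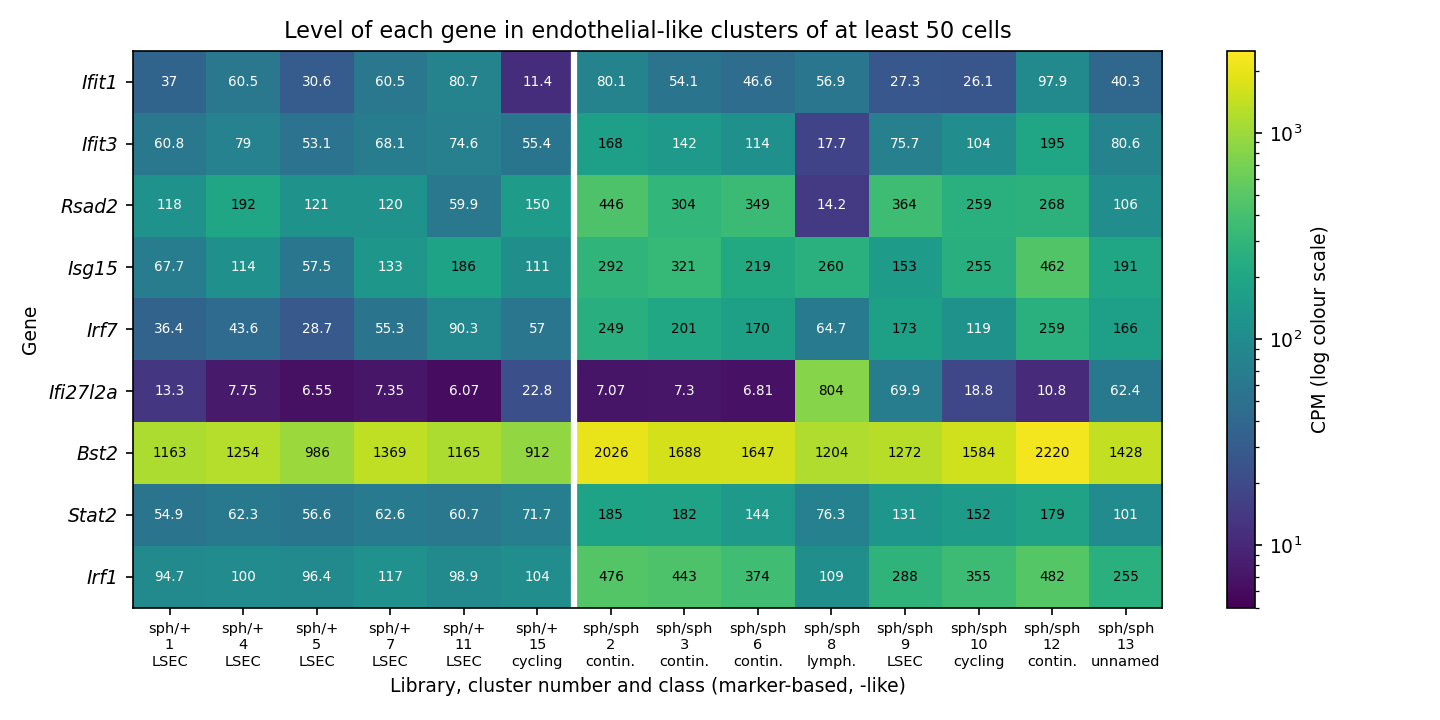
Level of each gene (colour on a log scale, printed in CPM) in the 6 sph/+ and 8 sph/sph endothelial-like clusters of at least 50 cells, with cluster number and marker-based class under each column and a white line between the libraries. The single bright square in the Ifi27l2a row is the lymphatic-like cluster 8 at 804, where Rsad2 (14.2) and Ifit3 (17.7) are dark.

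Among the sph/sph clusters, 6 of the 9 genes were highest in cluster 12. This continuous vascular-like cluster of 208 cells, led by Igfbp3, Rbp7 and the artery-associated genes Cxcl12, Sema3g and Gja5, had Ifit1 (97.9), Ifit3 (195), Isg15 (462), Irf7 (259), Bst2 (2220) and Irf1 (482) at their highest. Cluster 2 was led by Rgcc and Lpl with the MHC class II genes Cd74, H2-Aa and H2-Ab1. It had the highest Rsad2 (446, 429 to 463) and Stat2 (185), although the intervals of all neighbours in the order of Stat2 overlapped. The intervals of clusters 12 and 2 overlapped for Ifit1, Ifit3, Irf7 and Irf1. In cluster 12 Rsad2 was at 268 (237 to 302), below clusters 2, 9 and 6. This interval overlapped that of cluster 3 (304, 290.4 to 317). Cluster 9 had Rsad2 at 364 beside the lowest Isg15 of the library, 153 (139 to 168), whose interval met that of cluster 13 (191, 165 to 220). Across the 8 sph/sph clusters Pearson's r with Irf1 on log2 levels was 0.99 for Ifit3, 0.92 for Rsad2, 0.39 for Isg15 and -0.97 for Ifi27l2a. These clusters share 1 library and the lymphatic-like cluster weighs on each value.

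In sph/+ Irf1 and Stat2 varied little between clusters. Irf1 ran from 94.7 to 117 and Stat2 from 54.9 to 71.7 over the 6 clusters. The intervals of all neighbours in either order overlapped. Isg15 was at 57.5 (51.4 to 64.1) in cluster 5, led by Wnt2, Kit and Rspo3, which are genes of endothelium near the central vein, and at 67.7 in cluster 1. Cluster 4, led by Msr1 and Adam23, was at 114 (107 to 122), and cluster 7, led by Ntn4, Msr1 and Efnb1, at 133 (121 to 145). The highest Isg15 was 186 (162 to 212) in cluster 11, led by Nrg1, Adgrg6 and Sdc1, which also had the highest Irf7 (90.3) and Ifit1 (80.7) but the lowest Rsad2, 59.9 (46.6 to 75.8). Its intervals overlapped that of cycling cluster 15 for Irf7 and that of cluster 4 (60.5) for Ifit1. Cluster 4 had the highest Rsad2, 192 (183 to 202), with cluster 15 (149.9, 121 to 184) next and overlapping in interval. Ifit1 was at 30.6 in cluster 5 and lowest in cluster 15, at 11.4 (4.58 to 23.5, 66 cells). The level in cluster 5 was within the interval of the LSEC-like sph/sph cells, 21.4 to 34.0.

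For 3 of the genes, those with the most similar pattern over clusters were found by Pearson's r of log2 levels within a library. In sph/sph, over 8 clusters and 6698 genes, Irf1 was most like Trim30a (0.99), Trim12a (0.99) and Csf1 (0.99). Ifi27l2a was most like Thy1 (0.98), Nqo1 (0.98) and Gpm6a (0.98), and Ifit1 like Cd151 (0.98), Pip4k2c (0.97) and Saysd1 (0.96). In sph/+, over 6 clusters and 6661 genes, the nearest were Tifa for Ifit1 (r of 0.997) and Dcaf1 for Irf1 (0.98). Irf1 there spanned only 0.29 on the log2 scale. The highest of so many correlations over so few clusters can be large for any gene, and shared regulation was not tested.

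Upstream of these genes, the ligands themselves were not seen. Of 18 listed type I interferon genes, 16 had no UMI in the endothelial-like cells of either library; Ifnb1 had 1 UMI in sph/+ and Ifnz 1 in sph/sph. At this depth the upper 95% Poisson bound for a gene with no UMI was 0.134 CPM in sph/+ and 0.125 in sph/sph. Receptor transcripts differed little: Ifnar1 was at 48.6 and 44.2 and Ifnar2 at 103 and 88.2 in sph/+ and sph/sph. Of the kinases, Jak1 was at least 2-fold lower, at 1199 and 343 (log2 ratio -1.80), and Tyk2 was at 26.7 and 19.3.

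Downstream of the receptor, Irf9, the partner of Stat2, was at 67.3 CPM in sph/+ and 73.9 in sph/sph. Irf8, a factor of myeloid cells and of interferon gamma responses, was at 87.6 and 295. Irf2 was at 150.4 and 159, and Irf3 at 63.8 and 61.5. The 5 measured factors thus held 2 that were at least 2-fold higher and 0 lower. Among all 7466 measured genes 11.1% were higher and 10.8% lower, and counts in roles this small describe single genes. Among 9 measured sensors and adaptors 2 were higher: Zbp1, a sensor of Z-form nucleic acids, at 2.48 and 232, and Tmem173 (STING) at 33.4 and 75.7. Inhibitors were split, with Irf2bp2 (270.2 and 79.9) and Socs3 (85.4 and 41.7) at least 2-fold lower, Usp18 at 22.02 and 38.3, and Socs1 at 34.5 and 48.4.

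The 9 listed genes of ubiquitin and ISG15 conjugation, the machinery that attaches Isg15 to other proteins, and their associated PARPs were all measured, and 8 of them were higher by 2-fold or more. Ube2l6, the conjugating enzyme of ISG15, was at 17.4 and 93.6, and Parp14 was at 155 and 393. The 42 measured antiviral effectors other than the 9 genes had a median log2 ratio of 0.32. Of them, 13 were at least 2-fold higher and 4 lower. Slfn2 (6.13 and 96.3), Slfn8 (1.31 and 21.6) and Ifi213 (16.1 and 68.1) were higher, while Ifi207 (152 and 13.5) and Ifitm1 (21.6 and 3.66) were lower. In all roles 25 of 74 measured genes were higher and 7 lower. Of all 7466 measured genes, 11.1% were higher and 10.8% lower, so the lower share of the pathway was close to that of all genes. Between the LSEC-like cells of the 2 libraries 15 pathway genes were higher and 6 lower, beside 804 and 744 of all 7413 measured genes.

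Genes best known for interferon gamma were listed apart, and 7 of 8 measured ones passed 2-fold toward sph/sph. Of all 7466 measured genes 11.1% did so, but this list was chosen with earlier results of these data known. Cxcl9, a chemokine, was at 106 and 2673 CPM, and Igtp, a GTPase, at 36.2 and 835. Ciita, the regulator of MHC class II, had 5 UMIs and 2453, and Ubd, a ubiquitin-like modifier, 0 and 29944. Ifng itself had no UMI in the endothelial-like cells of either library. The 7 T or NK cell markers, Ptprc among them, summed to 3 and 15 UMIs, with Cd3e, Cd3d, Trbc2 and Gzma at 0 in both. The CD45- sort and the choice by endothelial markers leave out T and NK cells, so these counts cannot show whether they were in the liver.

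**Figure D3:**
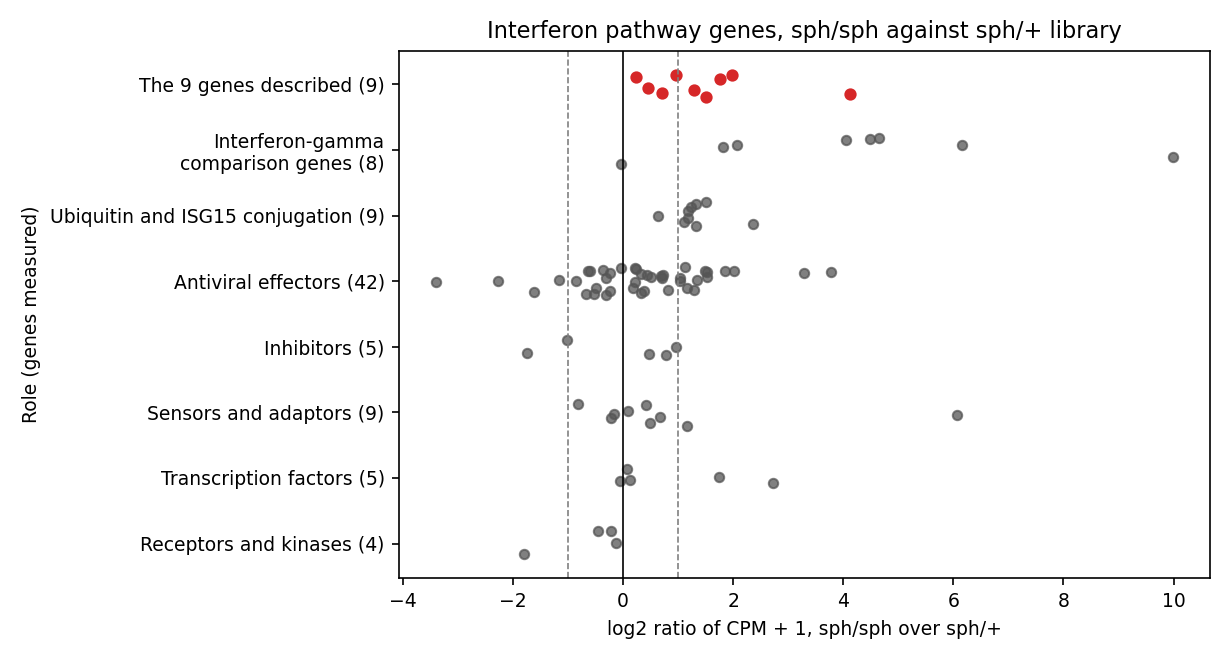
The log2 ratio of sph/sph over sph/+ (1 CPM added to both) for each measured gene by role, with the 9 genes described in red and dashed lines at 2-fold. Conjugation genes sit near or above the upper line (8 of 9), receptors and kinases below 0; the point near 10 is Ubd, which had no UMI in sph/+, so its position depends on the value added.

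Cells with 3 or more UMIs of Ifit1 and Rsad2 together were then counted. They were not rare: 495 of 5661 sph/+ endothelial-like cells held that many (8.74%, Clopper-Pearson 95% interval 8.02 to 9.51), as did 1248 of 5943 sph/sph cells (21.0%, 19.97 to 22.1). Deeper cells pass more easily. In sph/+ such cells had a median of 5570 UMIs and the rest 4460, and in sph/sph 4744 and 3904. With each cell thinned to 2000 UMIs, 2.25% of sph/+ (1.88 to 2.68) and 8.13% of sph/sph cells (7.42 to 8.88) held 3 or more. The sph/sph share was thus the larger with and without thinning. Of the sph/+ cells above the threshold in suffix 2, 67.9% were also above it in suffix 1, and 68.0% in sph/sph; these counts share molecules.

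Beyond the threshold the highest values were in sph/+. The highest sph/+ cell held 161 UMIs of the 2 genes and the highest sph/sph cell 58. Only 23 sph/+ cells (0.406%) held 10 or more, yet they carried 15.1% of the Ifit1 and Rsad2 UMIs of endothelial-like cells; in sph/sph 109 cells (1.83%) carried 17.3%. Of the 23, 15 were in cluster 4, the Msr1-led LSEC-like cluster, which held 23.8% of sph/+ endothelial-like cells, and so were the 8 highest. Cluster 4 also had the largest share at 3 or more among the LSEC-like clusters, 13.7% (11.95 to 15.7), against 6.55% in cluster 1 and 6.96% in cluster 5. Its median depth of 5239 UMIs was above theirs, 4195 and 4264, and the part of depth in this difference was not tested. Cycling cluster 15 (66 cells, median depth 8811 UMIs) had a share of 18.2% (9.76 to 29.6). In sph/sph the share was highest in cluster 2 (29.1%) and cluster 9 (25.8%) and lowest in the lymphatic-like cluster 8 (7.65%).

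**Figure D4:**
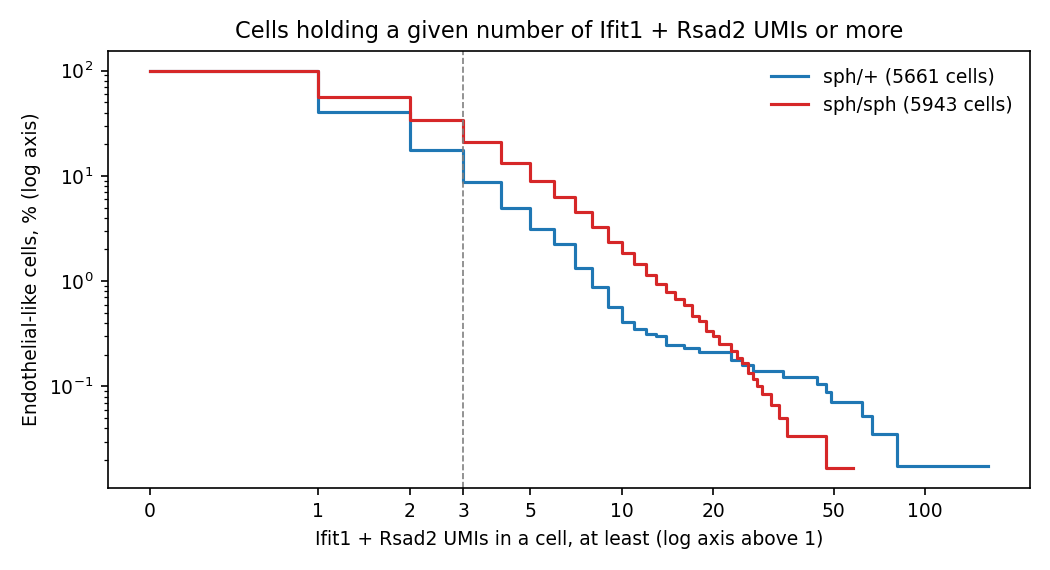
Share of endothelial-like cells (%, log axis) holding at least a given number of Ifit1 and Rsad2 UMIs (log axis above 1) in sph/+ (blue, 5661 cells) and sph/sph (red, 5943 cells), with a dashed line at 3. The red line is higher at 3 (21.0% and 8.74%), and the blue line reaches further, to 161 UMIs against 58.

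The single highest sph/+ cell shows what such a cell held. Among its 7266 UMIs were 29 of Ifit1, 132 of Rsad2, 29 of Isg15, 9 of Ifit3 and 137 of Cxcl10, and it held the only Ifnb1 UMI of the endothelial-like cells (0 under suffix 1). A second cell had 75 Rsad2, 33 Isg15 and 14 Ifit3 UMIs among 7409. Over all 495 cells, 327 had an Ifit1 UMI, 471 a Rsad2 UMI, 312 an Isg15 UMI and 263 an Ifit3 UMI, and the median cell had a UMI of 5 of the 9 genes. Ifi27l2a was found in 23 of the 495.

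Genes that did not choose these cells were compared next, as a description, since the cells of a library are not replicates. Isg15 was at 318 CPM in the 495 sph/+ cells and 64.0 in the other sph/+ cells, a ratio of 4.97 (4.59 to 5.38). Ifit3 was at 219 and 45.4, a ratio of 4.82 (4.38 to 5.31), followed by Irf7 at 86.1 and 36.7 and Stat2 at 103 and 53.1. Irf1, Bst2 and Ifi27l2a were close in both sets, with ratios of 1.21, 1.15 and 1.07. With the 23 highest cells left out, Isg15 was still 4.05-fold (3.71 to 4.41) and Ifit3 3.95-fold higher (3.55 to 4.38). Cells with exactly 2 UMIs, just below the threshold, had Isg15 at 118 and those with exactly 3 at 165.

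Few other genes differed between the 2 sets of sph/+ cells. With 20 CPM added to both, 19 of 6825 measured genes (0.278%) were at least 2-fold higher, and 0 lower. The 19 included Ifit1 and Rsad2, which chose the cells, Isg15 and Ifit3, and 7 antiviral effectors and 1 inhibitor of the pathway list. On that scale the 10 with the highest ratio outside the 9 genes were Cxcl10, Ifit3b, Cmpk2, Ifit2, Cenpf, Oasl2, Iigp1, Usp18, Mki67 and Ifi44. Cxcl10, a chemokine gene induced by both kinds of interferon, was at 406 and 48.4, and was 3.20-fold higher (2.86 to 3.56) without the 23 highest cells. Cenpf (83.3 and 23.0) and Mki67 (87.3 and 29.2) mark dividing cells, which made up 2.42% of these cells (cycling cluster 15) and 1.17% of all. Ifnar1, Ifnar2 and Jak1 were at 42.3, 104 and 1246 in these cells and 49.4, 103 and 1193 in the rest. Markers of plasmacytoid dendritic cells, the main producers of type I interferon in blood, and of T or NK cells had no UMI in the 495 cells. Each list had only 3 UMIs in all sph/+ endothelial-like cells, which were sorted as CD45- and chosen by endothelial markers. The lack of UMIs therefore does not set the 495 cells apart from the rest.

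The same division was made in sph/sph. Isg15 was at 408 and 226 (ratio 1.80, 1.72 to 1.89), Ifit3 at 192 and 81.8 (2.35) and Irf7 at 234 and 150.4 (1.56), while the ratios of Irf1 (1.28) and Bst2 (1.17) were close to those in sph/+. Ifi27l2a was lower in the cells above the threshold, at 85.8 and 220.0, where lymphatic markers summed to 600.2 and 1695 CPM. At least 2-fold higher were 6 of 6890 genes (0.0871%), Ifit1 and Rsad2 included, and lower 30 (0.435%), Ifi27l2a included. Leading genes were Sprr2b (228 and 63.5), Cxcl10 (999 and 411) and Ifit2 (338 and 144), with Hbb-bt, Hba-a1 and Hba-a2 also among the first 10. Erythroid markers summed to 4243 in these cells and 2397 in the rest, and their part was not tested.

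**Figure D5:**
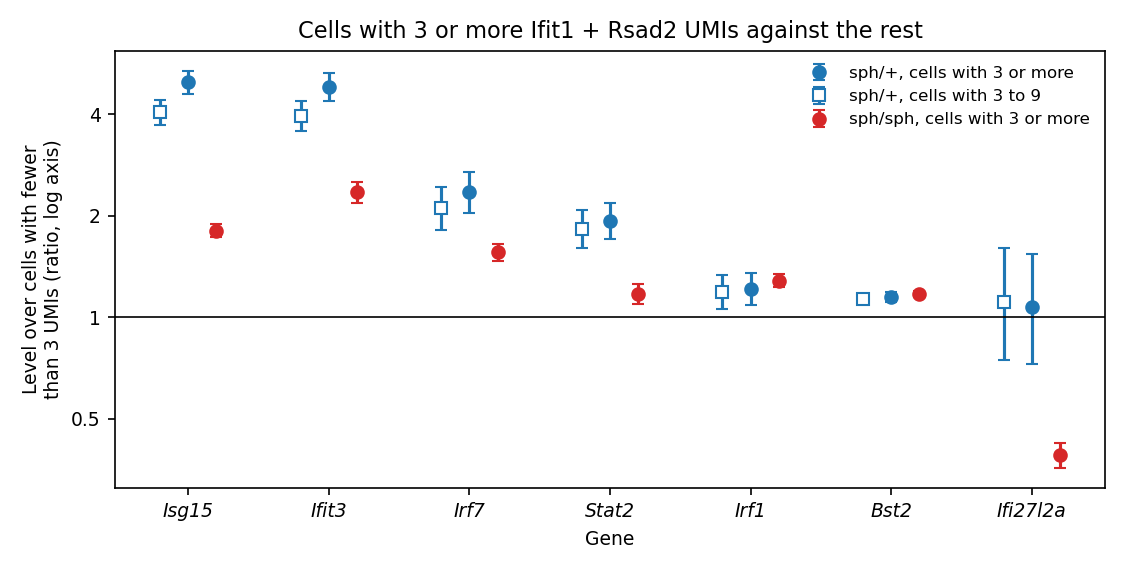
Ratio (log axis) of each gene's level in cells with 3 or more Ifit1 and Rsad2 UMIs to that in cells with fewer, in sph/+ (blue circles), in sph/+ with only cells of 3 to 9 UMIs (open squares) and in sph/sph (red), with 95% intervals for counting error. Isg15 and Ifit3 are near 5 in sph/+ (4.97 and 4.82) and 1.80 and 2.35 in sph/sph, and Ifi27l2a is below 1 in sph/sph.

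Without the cells above the threshold, each of the 9 genes was still higher in sph/sph. Isg15 was then at 64.0 and 226 (ratio 3.54) and Irf7 at 36.7 and 150.4 (4.10). Ifit1 was at 19.7 and 28.9 (1.47). The cells above the threshold held 63.1% of Ifit1 UMIs in sph/+ and 60.2% in sph/sph. Rsad2 was at 74.8 and 98.8 (ratio 1.32 in place of 1.96), and the cells left out held 52.2% and 71.9% of its UMIs. Since Ifit1 and Rsad2 chose the cells, these last values are descriptions.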

How the data were processed

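The authors deposited raw UMI counts per gene and barcode with no normalization. Cell Ranger 3.0 and the build mm10 are named, per the submitters' processing notes, and the file headers name software version 3.1.0. Filters or other steps before deposit are not given in the sources used here. Only barcodes with suffix 2 were used, a choice made after the pairs were found. A barcode needed 500 genes, 1000 UMIs and at most 15% mitochondrially encoded UMIs. Scrublet's automatic threshold in scanpy 1.11.5 called 0 doublets, so the highest scores were removed at 0.8% per 1000 barcodes (383 in sph/+ and 464 in sph/sph; ties included). Both libraries were clustered together, without integration (2000 variable genes, 30 principal components, 15 neighbours, leidenalg 0.10.2, resolution 1), leaving out of the variable genes 130 interferon genes and those that are sex-linked or encode Gimap, mitochondrial, ribosomal or immunoglobulin products. Clusters were named from marker lists, by markers among their 10 leading genes and markers detected in 25% of cells; the numbers required were set after the data were opened, and 1 condition (3 detected markers for a non-endothelial name) was added after haemoglobin RNA had given a vascular cluster an erythroid name.

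Summed counts were scaled to CPM. A gene was measured at 20 CPM in either library, and log2 ratios had 1 CPM added. Intervals are 95% exact Poisson, Clopper-Pearson or, for ratios, exact binomial, and cover counting error only. Overlapping intervals do not show that levels are equal. The 9 genes and all lists were chosen with earlier results of these data known. Named pathway genes were the receptor subunits, Irf9 and up to 5 measured genes per role with the largest absolute log2 ratio; other genes named were the 3 most alike, the 10 leading genes of a set of cells, cluster leaders and, chosen after their values were seen, Ifnb1, Ifnz, Ifng and Ifit3b. Some genes these choices name are not reported here. The ratio and interval functions were tested on simulated data. Alternatives included TMM scaling with edgeR 4.0.16.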

Additional observations from a re-analysis of the deposited data

How the results depend on the processing

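No paired analysis was possible because each group has 1 library. In all 23 alternatives (scalings, floors, filters, cluster resolutions, thinning and 7 added after seeing the data) the counts stayed at 5 or 6 genes of the 9 at least 2-fold higher and 0 lower, though not always the same genes. Lower pathway genes numbered 6 or 7 and higher ones 21 to 28, except 15 between LSEC-like cells of both libraries. There Ifit1 also changed direction, to a log2 ratio of -0.79. That class depends on the clustering: at resolution 0.5 no LSEC-like cluster held more than 1 sph/sph cell. Ifi27l2a reversed to a log2 ratio of -0.29 between LSEC-like sph/+ and continuous vascular-like sph/sph cells, which leaves out lymphatic-like cells by construction. The sph/+ share with 3 or more Ifit1 and Rsad2 UMIs was 17.7% at a threshold of 2, 3.16% at 5 and 2.25% when thinned. The sph/sph share was 34.0% at 2, 8.93% at 5, 8.13% thinned, 19.5% under suffix 1 and 17.5% over every deposited barcode (both suffixes). Without clusters 6 and 9, whose leading genes include haemoglobin, the log2 ratio was 0.83 for Rsad2 and 0.36 for Ifit1. For the ligands, 1 or no UMI cannot show whether they are expressed. Nothing separates genotype from mouse or library.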
